A study of Mus musculus with 4 samples.

Results

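Metallothionein and zinc transporter genes were described in B16F10, a pigmented mouse melanoma cell line grown in culture. The 10 genes were taken by symbol from the 27179 genes of the count table and comprised the metallothioneins Mt1 and Mt2, the zinc-sensing transcription factor gene Mtf1, the exporters Slc30a1, Slc30a4, Slc30a5 and Slc30a7, and the importers Slc39a6, Slc39a10 and Slc39a14. All 10 passed the filter on low counts. RNA was sequenced from 4 libraries of wild-type cells, 2 cultured with plain olive oil and 2 with ozonated olive oil, each at 0.01% for 6 h in medium with serum. All cells received an oil, and no comparison with untreated cells was made. Separate cultures are not stated in the labels, and p-values therefore cover the spread between libraries, which may be technical.

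Metallothioneins are small proteins rich in cysteine that bind zinc, copper and cadmium and buffer the free zinc of the cytosol. Free zinc is sensed by the zinc-finger protein MTF1, which binds metal response elements in DNA and, in mouse cells, raises Mt1, Mt2 and Slc30a1 and lowers Slc39a10. Proteins of the Slc30a family move zinc out of the cytosol, across the plasma membrane or into organelles, and proteins of the Slc39a family move it into the cytosol.

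Mt1 and Mt2 are neighbours on mouse chromosome 8, and their start regions are printed with that of Slc30a1. These 3 genes were picked because each ozonated oil library exceeded each plain oil library, as in 19.9% of all tested genes. The sequences are RefSeq windows of build GRCm38.p6 running from 250 bases before to 50 bases after the annotated start, 5′ to 3′ on the strand of the gene. Capitals mark matches on either strand to the core of the metal response element, searched as TGCACNC and TGCGCNC.
Mt1, chr8:94178839-94179138, plus strand: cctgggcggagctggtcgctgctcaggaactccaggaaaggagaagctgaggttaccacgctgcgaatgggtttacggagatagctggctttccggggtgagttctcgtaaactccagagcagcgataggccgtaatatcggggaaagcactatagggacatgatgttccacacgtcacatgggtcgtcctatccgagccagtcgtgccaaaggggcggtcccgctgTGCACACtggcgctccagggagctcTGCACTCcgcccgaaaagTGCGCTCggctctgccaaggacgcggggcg
Mt2, chr8:94172368-94172667, plus strand: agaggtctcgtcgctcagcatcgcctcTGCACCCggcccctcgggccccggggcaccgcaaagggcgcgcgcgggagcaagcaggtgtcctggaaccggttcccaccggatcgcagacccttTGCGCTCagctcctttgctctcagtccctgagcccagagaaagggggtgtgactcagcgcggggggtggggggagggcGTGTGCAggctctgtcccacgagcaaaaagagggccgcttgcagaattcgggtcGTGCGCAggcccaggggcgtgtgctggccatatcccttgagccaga
Slc30a1, chr1:191906531-191906830, plus strand: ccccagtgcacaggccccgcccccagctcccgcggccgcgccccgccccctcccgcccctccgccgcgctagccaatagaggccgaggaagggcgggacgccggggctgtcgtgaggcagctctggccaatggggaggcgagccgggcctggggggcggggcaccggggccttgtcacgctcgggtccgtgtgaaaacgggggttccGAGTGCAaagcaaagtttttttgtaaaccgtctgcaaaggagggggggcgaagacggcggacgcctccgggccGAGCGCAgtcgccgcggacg

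The window of Mt1 held 3 matches, a number that 1.97% of the 32851 RefSeq windows of this length reached or exceeded. Mt2 had 4 matches, reached by 0.517% of windows, and Slc30a1 had 2, reached by 7.11%. Slc30a4 also had 3 matches and Slc30a5 had 1, while 25.7% of all windows held at least 1. No match lay in the windows of Mtf1 and Slc30a7 or in either of the 2 windows of Slc39a10. No 2 matches overlapped. The core of the antioxidant response element, searched as TGACNNNGC on both strands, occurred once in the windows of Mt2, Slc30a1 and Slc30a5, and at least once in 12.4% of all windows. Windows of 8 of the 10 genes were searched. Slc39a6 was left out of the search, and no window was available for Slc39a14. Relative to the GENCODE start along the gene, the start used for Mt2 lies at -46 bases, that for Mtf1 at 445 bases and the 2 for Slc39a10 at -32924 and 39234 bases. The windows of Mtf1 and Slc39a10 therefore do not contain the GENCODE start. Only these windows were searched, so the counts do not describe whole promoters, and elements outside the windows would be missed. This holds for Mt1 as well, which has 3 annotated transcripts. A match is a stretch of letters and not a measured binding site.

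Libraries held between 22539486 and 30038784 counts. Levels are CPM, counts scaled to a fixed total after trimmed-mean (TMM) correction of library sizes, and changes are log2 of ozonated over plain oil from the quasi-likelihood test of edgeR, with a standard error. Over all 12675 genes tested, 0 had an adjusted p below 0.05 (0% called) with edgeR, 1245 (9.82%) had an unadjusted p below 0.05, and DESeq2 called 271 (2.14%). The median gap between the libraries of a group was 0.20 on the log2 scale with plain oil and 0.37 with ozonated oil. All 7 melanocyte markers were present, with a summed level of 19541 to 24694 CPM with plain oil and 21864 to 26048 CPM with ozonated oil. Summed keratinocyte markers (4 keratins, all above 1 CPM on average) ranged from 3.44 to 24.4 CPM with plain oil and from 0.921 to 19.1 CPM with ozonated oil. Fibroblast markers (2 of 5 above 1 CPM) summed to 7.39 to 7.84 and 5.61 to 5.92 CPM, and macrophage markers (Cd68 alone above 1 CPM, Adgre1 at 0) to 0.924 to 2.88 and 2.07 to 3.90 CPM. Endothelial markers stayed at or below 0.263 CPM, with Cdh5 and Kdr at 0 counts. The part of these markers in the results was not tested.

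Both metallothionein genes had higher values with ozonated oil, Mt1 at 1.84-fold and Mt2 at 1.999-fold the plain oil level, and neither passed the test over all genes. Mt1 was at 468 and 606 CPM in libraries 1 and 2 of plain oil and at 676 and 1304 CPM in ozonated oil libraries 1 and 2. The groups did not overlap, as in 40.0% of all tested genes. The lower ozonated oil library stood close to the higher plain oil library. Most of the difference in means lay in ozonated oil library 2. The group values of Mt1 were 537 ± 97.8 and 990 ± 445 CPM (SD, n = 2 libraries each), a log2 change of 0.88 ± 0.35 (SE, edgeR unadjusted p = 0.0458, adjusted p = 0.501). Mt2 was at 216 and 302 CPM with plain oil and at 379 and 657 CPM with ozonated oil. The order of the 4 libraries was the same as for Mt1. Means of Mt2 were 259 ± 61.2 and 518 ± 196 CPM (SD, n = 2 libraries each), a log2 change of 0.9996 ± 0.32 (SE, edgeR unadjusted p = 0.0212, adjusted p = 0.404). In bulk RNA, more cells with these transcripts and more transcript per cell cannot be told apart.

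**Figure D1:**
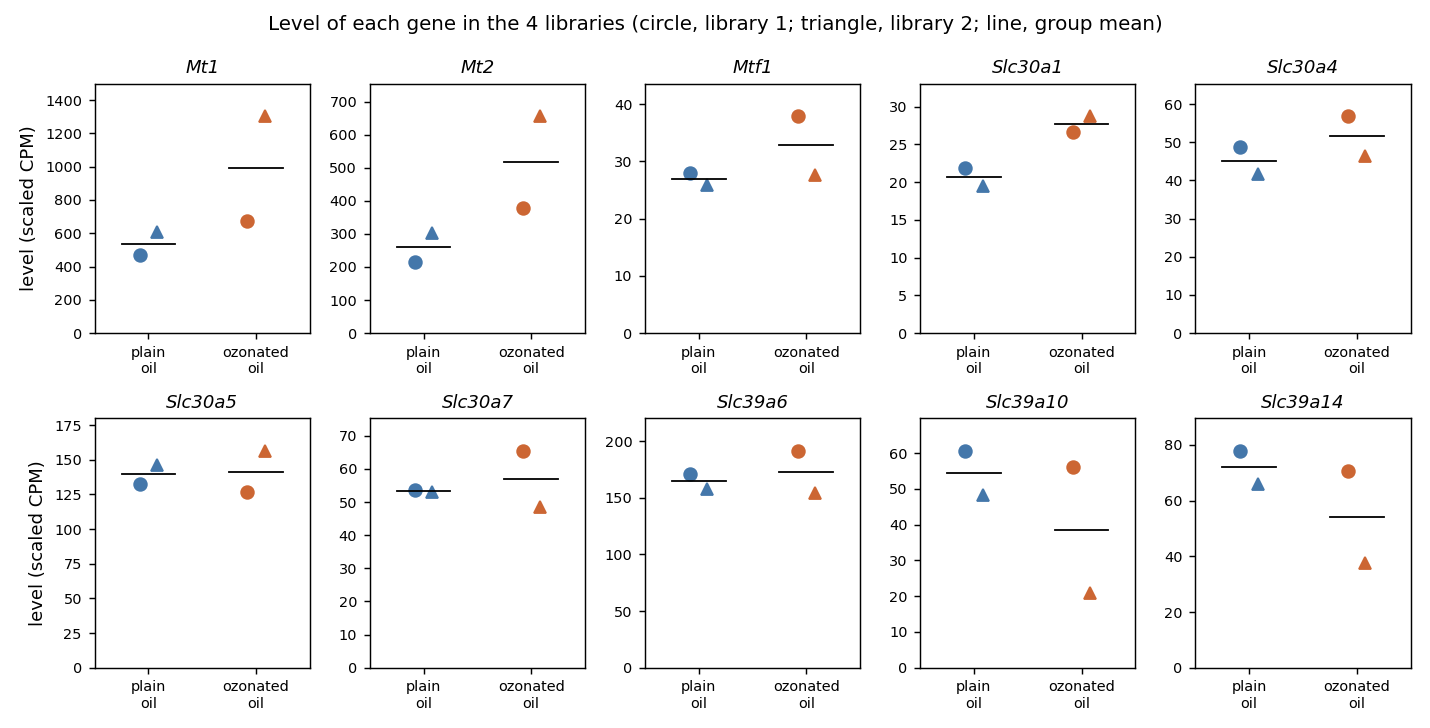
Level of each of the 10 genes in scaled CPM, with a vertical axis from 0 in every panel, in the plain oil libraries (blue) and the ozonated oil libraries (orange); circles are library 1, triangles library 2 and lines group means. Mt1, Mt2 and Slc30a1 are the panels in which the groups do not overlap, as in 40.0% of all tested genes. Ozonated oil library 2 is the highest for Mt1 (1304 CPM) and Mt2 (657 CPM) and the lowest for Slc39a10 (20.96 CPM) and Slc39a14 (37.6 CPM).

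Together Mt1 and Mt2 made up 684 and 909 CPM with plain oil and 1055 and 1961 CPM with ozonated oil. The sum of ozonated oil library 1 was 1.16 times that of plain oil library 2, whereas ozonated oil library 2 was at 1.86 times ozonated oil library 1. As a share of all counts the pair held 0.0716% and 0.0926% with plain oil, and 0.106% and 0.183% with ozonated oil. The Wilson 95% interval of the highest share was 0.182% to 0.185%, which covers counting error only and is far narrower than the gap between libraries. Mt1 levels were 2.17 and 2.005 times those of Mt2 in the plain oil libraries, and 1.78 and 1.99 times in the ozonated oil libraries. These ratios are not corrected for transcript length. Per kilobase of the longest transcript, Mt1 was at 495 and Mt2 at 507 CPM with plain oil. With the mean transcript length they were at 711 and 576, so this comparison depends on the length used.

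Leaving out ozonated oil library 2 brought the log2 change of Mt1 to 0.32 (edgeR adjusted p = 0.610) and that of Mt2 to 0.54 (adjusted p = 0.408). Without ozonated oil library 1 they were 1.25 and 1.31, with adjusted p-values of 0.0465 and 0.0451, in a comparison in which 2.97% of genes passed. DESeq2 gave adjusted p-values of 0.207 for Mt1 and 0.0804 for Mt2.

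The Mt2 gene (chromosome 8, 94172664 to 94173568 in GENCODE M21, build GRCm38) ends 5513 bases before the start of Mt1 (94179082 to 94180327), on the same strand. The longest exact stretch that transcripts of the 2 genes share is 20 bases, and no stretch of 50 bases of either occurs in an annotated transcript of another gene. Gm45774, an antisense gene, overlaps Mt2 by 749 bases, measured over whole gene spans, introns included. The library kit was directional, but whether the counting used the strand is not stated. Counts of Mt2 may therefore include reads of Gm45774. The other metallothionein genes of this cluster, Mt3, known from brain, and Mt4, known from stratified epithelium, had counts of 0, 0, 2 and 0 and of 0 in all libraries, and were not tested.

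Mtf1 overlapped between groups. Its levels were 27.9 and 25.9 CPM with plain oil and 37.9 and 27.7 CPM with ozonated oil, so ozonated oil library 2, the library with the most metallothionein RNA, was within the plain oil range and ozonated oil library 1 was above it. The log2 change was 0.29 ± 0.22 (SE, edgeR unadjusted p = 0.244, adjusted p = 0.767). It was 0.49 with ozonated oil library 2 left out and 0.0099 with library 1 left out. Mtf1 (chromosome 4, 124802104 to 124849800) overlaps the coding gene 1110065P20Rik on the opposite strand by 721 bases.

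Among the 4 exporters, Slc30a1 was the one whose groups did not overlap, as in 40.0% of all tested genes. Slc30a1 is the exporter of the plasma membrane. Its levels were 21.8 and 19.5 CPM with plain oil and 26.6 and 28.7 CPM with ozonated oil. Unlike Mt1 and Mt2, its ozonated oil libraries lay near each other, at a ratio of 1.08. Means were 20.7 ± 1.65 and 27.6 ± 1.52 CPM (SD, n = 2 libraries each), a log2 change of 0.42 ± 0.19 (SE, edgeR unadjusted p = 0.0714, adjusted p = 0.559). With any 1 library left out the log2 change stayed between 0.34 and 0.51. Slc30a1 (chromosome 1, 191906767 to 191913247) overlaps the antisense gene 1700034H15Rik by 761 bases.

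The exporters of internal membranes differed less. Slc30a4, which fills endosomal vesicles with zinc and is the gene of the mouse mutant lethal milk, was at 48.7 and 41.7 CPM with plain oil and 56.8 and 46.4 CPM with ozonated oil, a log2 change of 0.19 ± 0.20 (SE, edgeR adjusted p = 0.816). Slc30a5, which supplies zinc to enzymes of the secretory pathway, was at 133 and 146 CPM and at 126 and 156 CPM, with a log2 change of 0.021 ± 0.19 (SE, adjusted p = 0.981). Slc30a7, an exporter of the Golgi, was at 53.6 and 53.0 CPM and at 65.4 and 48.6 CPM, with a log2 change of 0.098 ± 0.20 (SE, adjusted p = 0.922). In these 3 genes the groups overlapped and the change was no larger than its standard error. For Slc30a5 and Slc30a7 the sign of the change depended on which library was left out. Slc30a4 lies on chromosome 2 (122681233 to 122702663), where it overlaps the noncoding 4930417H01Rik on the opposite strand by 617 bases. Slc30a5 is on chromosome 13 (100802648 to 100833427), and 1.29% of the 50-base stretches of its transcripts also occur in transcripts of other genes. Slc30a7 is on chromosome 3 (115938973 to 116007406) and its span, introns included, holds 2 processed pseudogenes on the opposite strand, Gm6649 over 1165 bases and Gm43106 over 637 bases.

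The importers Slc39a10 and Slc39a14 had lower mean values with ozonated oil, and in both the difference lay in ozonated oil library 2. Slc39a10, an importer of the plasma membrane that pairs with the product of Slc39a6, was at 60.6 and 48.2 CPM with plain oil and at 56.0 and 20.96 CPM with ozonated oil. Ozonated oil library 1 was within the plain oil range, and ozonated oil library 2 was at 0.374 times library 1. That gap was wider than the one found for 95.6% of tested genes between the same libraries. The log2 change of Slc39a10 was -0.50 ± 0.44 (SE, edgeR unadjusted p = 0.299, adjusted p = 0.795). With ozonated oil library 1 left out it was -1.41, and with library 2 left out 0.034.

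Slc39a14, which imports zinc and also manganese and iron that is not bound to transferrin, was at 77.8 and 66.0 CPM with plain oil and at 70.7 and 37.6 CPM with ozonated oil. Its pattern followed that of Slc39a10, with ozonated oil library 1 within the plain oil range and library 2 below it. The log2 change was -0.41 ± 0.31 (SE, edgeR unadjusted p = 0.234, adjusted p = 0.757). It was -0.97 when ozonated oil library 1 was left out and -0.034 when library 2 was. Slc39a6, an importer related to Slc39a10, was at 171 and 158 CPM and at 191 and 154 CPM, with a log2 change of 0.070 ± 0.19 (SE, adjusted p = 0.942). Its groups overlapped, and ozonated oil library 2 was at 0.807 times library 1. Slc39a6 (chromosome 18, 24579881 to 24603817) overlaps the coding gene Elp2 on the opposite strand by 952 bases. Slc39a10 lies on chromosome 1 (46807544 to 46892852) and Slc39a14 on chromosome 14 (70303469 to 70351425). Slc39a10 overlaps the gene models Gm37393 by 3870 bases and Gm28151 by 951 bases on its own strand, measured over whole gene spans, introns included.

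Ozonated oil library 2 held the highest Mt1 and Mt2 levels and the lowest Slc39a10 and Slc39a14 levels of the 4 libraries. Relative to the plain oil mean its log2 differences were 1.28 for Mt1, 1.34 for Mt2, -1.38 for Slc39a10 and -0.93 for Slc39a14. In ozonated oil library 1 the same differences were 0.33, 0.55, 0.043 and -0.025. For Slc30a1 the 2 libraries gave 0.48 and 0.36. These genes were set side by side after their values were seen. For Mt1 the gap between the ozonated oil libraries was wider than that of 87.9% of tested genes. The share was 82.2% for Mt2, 95.6% for Slc39a10, 86.7% for Slc39a14 and 16.5% for Slc30a1. With plain oil the log2 difference of library 2 from library 1 was 0.373 for Mt1 and 0.487 for Mt2. It was -0.33 for Slc39a10 and -0.236 for Slc39a14. In these genes library 2 thus differed from library 1 in the same direction in both groups, by less with plain oil. For Slc30a1 the directions differed, at -0.164 with plain oil and 0.113 with ozonated oil.

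**Figure D2:**
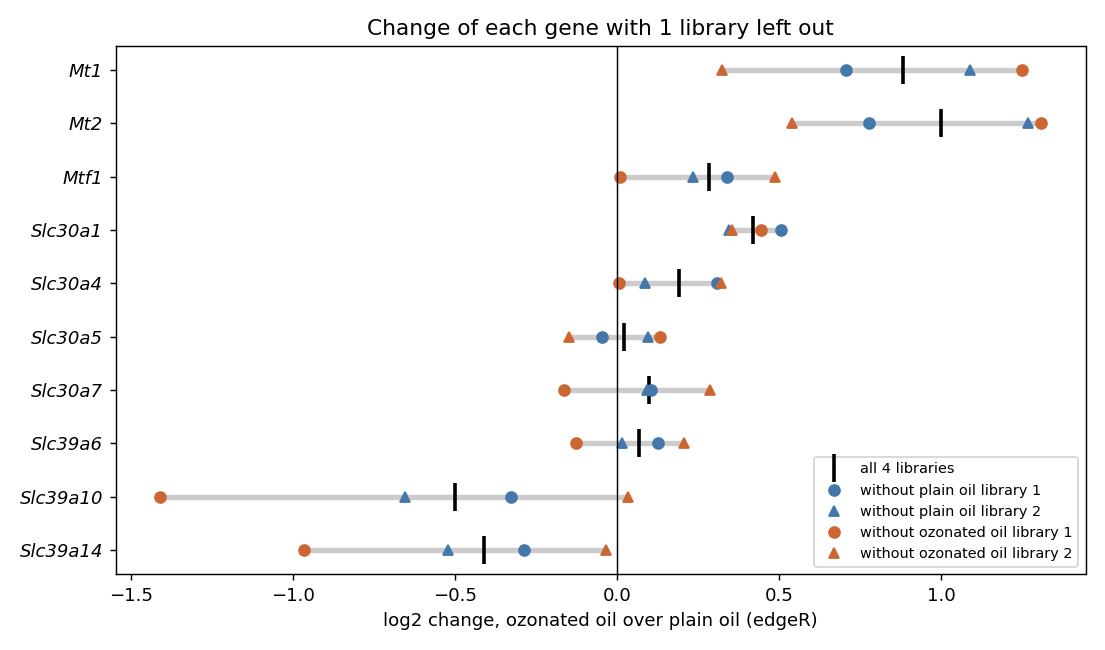
Log2 change of each of the 10 genes (ozonated over plain oil, edgeR, horizontal axis) with all 4 libraries (black bar) and with each library left out in turn (blue, a plain oil library; orange, an ozonated oil library; circle, library 1; triangle, library 2). Slc30a1 keeps a narrow range of 0.34 to 0.51, whereas Slc39a10 runs from -1.41 to 0.034 and Mt1 from 0.32 to 1.25.

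Of the 10 genes, 8 had a higher and 2 a lower value with ozonated oil, against 54.0% higher among all genes tested. At an unadjusted p below 0.05 there were 2 higher (4.54% of all tested genes) and 0 lower (5.29%). Groups did not overlap for 3 of the 10, against 40.0% of all genes, with ozonated oil higher for 3 (19.9% of all genes) and lower for 0 (20.0%). The median log2 change of the 10 was 0.14, against 0.035 over all genes tested.

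The rest of both transporter families was read in the same way. Of the 6 other exporters, Slc30a2, Slc30a6 and Slc30a9 were tested, and of the 11 other importers 8 were. Slc30a2, which loads zinc into vesicles, had the largest difference of the tested genes of either family. It was a gene of low level, at 1.91 and 1.81 CPM with plain oil (45 and 43 counts) and 0.570 and 0.356 CPM with ozonated oil (13 and 10 counts). The groups did not overlap, as in 40.0% of all tested genes. The log2 change was -2.002 ± 0.52 (SE, edgeR unadjusted p = 0.00845, adjusted p = 0.305). Slc30a9, a mitochondrial exporter, was at 135 and 165 CPM with plain oil and at 172 and 212 CPM with ozonated oil, a log2 change of 0.35 (adjusted p = 0.665). Slc30a6, whose product pairs with that of Slc30a5, had a log2 change of 0.092 (adjusted p = 0.922).

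Among the other importers, Slc39a7, which releases zinc from the endoplasmic reticulum, had a log2 change of 0.24 (edgeR adjusted p = 0.769) and Slc39a3 of 0.20 (adjusted p = 0.797). Slc39a13, an importer of the secretory pathway, had -0.21 (adjusted p = 0.806), and Slc39a5, at less than 1 CPM, -0.57 (adjusted p = 0.820). Over the whole Slc30a family 6 of 7 tested genes were higher by value, against 54.0% of all tested genes, and the median log2 change was 0.098. Over the whole Slc39a family it was 6 of 11, and the median was 0.000048. With edgeR and with DESeq2 0 genes of either family passed the test over all genes. At an unadjusted edgeR p below 0.05 the Slc30a family had 0 higher and 1 lower and the Slc39a family 0 in either direction, where 9.82% of all tested genes had such a p. Slc30a3, Slc30a8 and Slc39a12 had 0 counts in all libraries. Slc30a10, Slc39a2 and Slc39a8 had at most 8 counts in a library and were not tested.

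**Figure D3:**
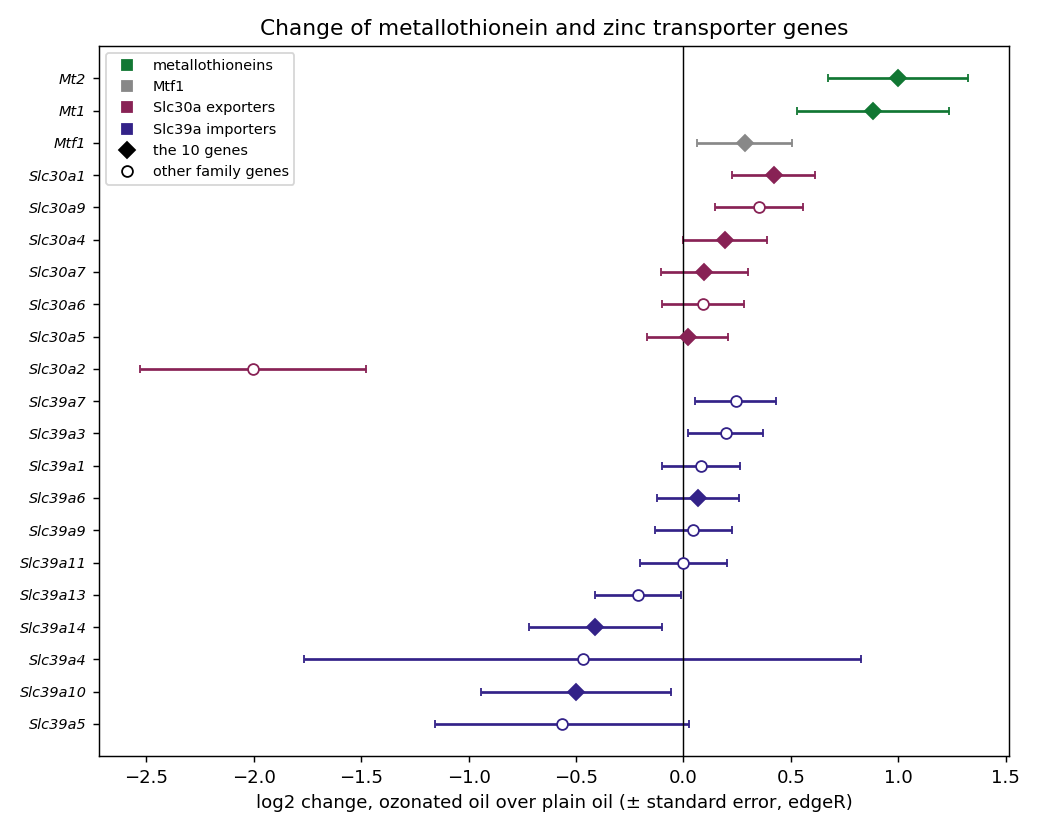
Log2 change (ozonated over plain oil, horizontal axis, bars are ± standard error from edgeR) of the 21 tested genes, coloured by metallothioneins, Mtf1, Slc30a and Slc39a; filled diamonds are the 10 genes followed here and open circles the rest of the families. Mt1 and Mt2 lie at 0.88 and 0.9996, most transporters lie near 0, and Slc30a2 lies at -2.002.

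Levels of different genes were compared per kilobase of the longest annotated transcript. With plain oil the metallothioneins were highest, Mt2 at 507 ± 120 and Mt1 at 495 ± 90.1 CPM per kilobase (SD, n = 2 libraries), and these 2 did not differ beyond their spread. Next came Slc39a6 at 42.4 ± 2.39 and Slc30a5 at 34.9 ± 2.34, followed by Slc39a14 at 14.1 ± 1.62, Slc39a10 at 9.89 ± 1.59 and Slc30a4 at 8.28 ± 0.906 CPM per kilobase. Slc39a10 and Slc30a4 overlapped between libraries. The lowest 3 were Slc30a7 at 5.91 ± 0.0444, Slc30a1 at 3.94 ± 0.315 and Mtf1 at 3.52 ± 0.187 CPM per kilobase. The libraries of the last pair lay close, Slc30a1 at 4.16 and 3.71 and Mtf1 at 3.65 and 3.39 CPM per kilobase. Among the other family genes, Slc39a7 (77.1 ± 4.05) was above every transporter among the 10, and Slc39a1 (43.4 ± 3.77) was near Slc39a6. These levels depend on the transcript length used, since the longest transcript of Mt1 is a single exon of 1085 bases, and with the mean transcript length Mt1 was at 711, Mt2 at 576 and Slc39a6 at 104 CPM per kilobase. Mt1 and Mt2 stayed the highest of the 10 with either length, while the order within each of the pairs Mt1 and Mt2, Slc30a1 and Mtf1, and Slc30a4 and Slc30a7 changed. The longest transcript of Slc30a5 is a retained intron, and with its longest coding transcript it was at 43.9 CPM per kilobase, level with Slc39a6.

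**Figure D4:**
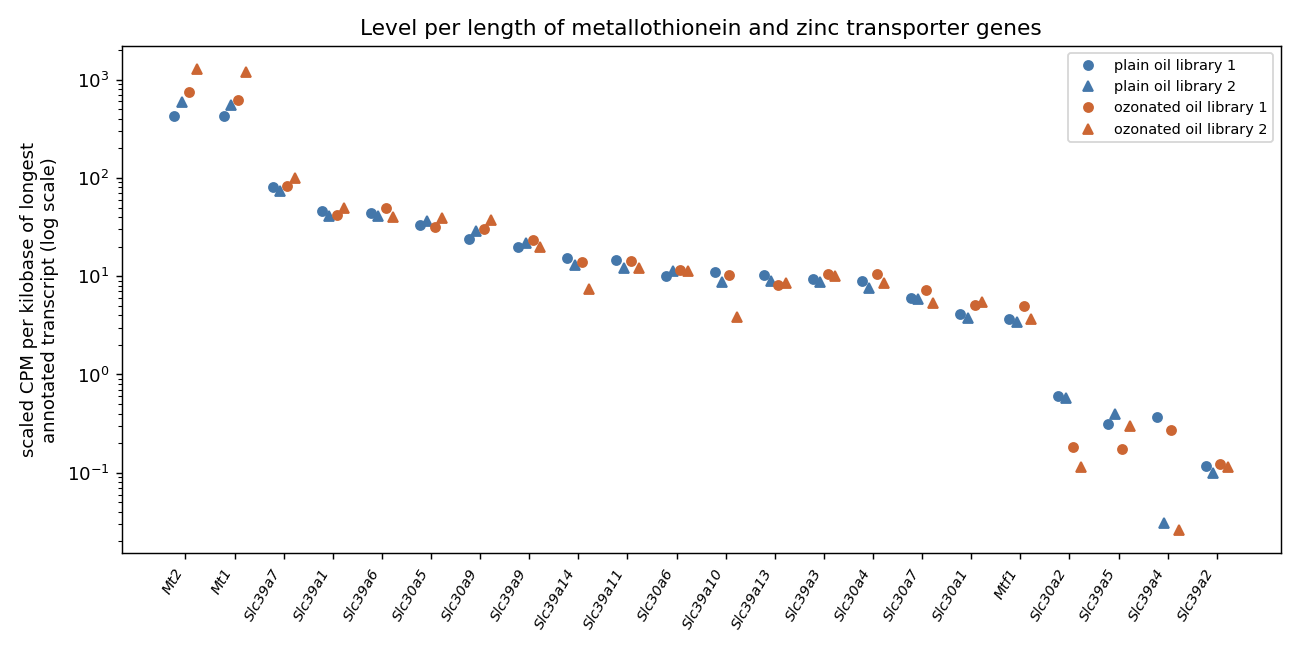
Level per length (scaled CPM per kilobase of the longest annotated transcript, log scale) of the 22 metallothionein, Mtf1 and zinc transporter genes with a count in every library; blue is plain oil, orange ozonated oil, circles library 1 and triangles library 2. Mt2 and Mt1 stand at 422 or more in every library, above Slc39a7 at 77.1 on average with plain oil, and Slc30a1 and Mtf1 are the lowest of the 10 genes followed here by the plain oil mean.

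Related genes were listed beside these 10. In the list of MTF1-responsive genes, which also holds Slc30a1 and Slc39a10, Gclc, the catalytic subunit of the enzyme that starts glutathione synthesis, was at 84.8 and 74.7 CPM with plain oil and at 156 and 126 CPM with ozonated oil. Its log2 change was 0.82 ± 0.19 (SE, edgeR unadjusted p = 0.00486, adjusted p = 0.273). Ndrg1, a stress-responsive gene, was at 184 and 194 CPM and at 354 and 278 CPM, a log2 change of 0.74 (adjusted p = 0.329). In both the groups did not overlap, as in 40.0% of all tested genes, and ozonated oil library 1 was the higher of its group, the reverse of Mt1 and Mt2. Selenow, a selenoprotein, was at 23.1 and 26.5 CPM and at 25.8 and 44.5 CPM (adjusted p = 0.665). DESeq2 gave Gclc an adjusted p of 0.0454, where it called 2.14% of all tested genes. Of the 5 listed genes 4 had higher values (54.0% of all tested genes), 2 of them at an unadjusted edgeR p below 0.05 (4.54% of all), and 0 passed edgeR's adjusted test. The median log2 change was 0.50. Because MTF1 raises Slc30a1 and lowers Slc39a10, these counts and the median have no common expected direction.

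Metallothioneins also bind copper, and of 12 tested copper-handling genes 10 were higher by value (54.0% of all tested genes) and 2 lower, and the median log2 change was 0.18. At an unadjusted p below 0.05 there were 1 higher (4.54% of all) and 1 lower (5.29%), and 0 passed the adjusted test of edgeR or DESeq2. Sco1, which carries copper to cytochrome c oxidase, was at 32.0 and 32.0 CPM with plain oil and at 20.5 and 21.7 CPM with ozonated oil, a log2 change of -0.60 ± 0.18 (SE, edgeR adjusted p = 0.364). Atp7b, a copper-exporting pump at low level, was at 0.381 and 1.13 CPM and at 2.46 and 2.14 CPM (adjusted p = 0.489). The copper importer Slc31a1 had a log2 change of 0.23 (adjusted p = 0.749) and Sod1, a copper and zinc enzyme, of 0.32 (adjusted p = 0.747). Without ozonated oil library 2 the median of the list was -0.016. Sco2, with 0 counts throughout, was not tested.

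Glucocorticoids induce Mt1 and Mt2 as well, and genes that respond to them were listed for that reason. Dusp1, a phosphatase of stress kinases, was at 6.23 and 6.13 CPM with plain oil and at 16.9 and 16.5 CPM with ozonated oil, a log2 change of 1.43 ± 0.23 (SE, edgeR adjusted p = 0.183). Klf9, a transcription factor, was at 7.71 and 7.77 CPM and at 19.2 and 19.6 CPM, a log2 change of 1.33 ± 0.22 (SE, adjusted p = 0.183). DESeq2 called both, with adjusted p-values of 0.000628 and 0.000977, where it called 2.14% of all tested genes. Sgk1, a kinase of sodium transport, had a log2 change of 1.23 (edgeR adjusted p = 0.344) and Per1, a clock gene, of 0.53 (adjusted p = 0.552). In these 4 genes both ozonated oil values were higher, as in 19.9% of all tested genes, while Fkbp5, a co-chaperone of the glucocorticoid receptor, lay lower in both ozonated oil libraries, at 64.8 and 41.1 CPM against 83.0 and 70.7 CPM with plain oil. Groups overlapped for Tsc22d3, with a log2 change of 0.21 (edgeR adjusted p = 0.931), and for Nr3c1, with -0.11 (adjusted p = 0.898). Of 7 tested genes 5 were higher by value and 2 lower, where 54.0% of all tested genes were higher. At an unadjusted edgeR p below 0.05 there were 3 higher (4.54% of all) and 0 lower (5.29%), and 0 passed edgeR's adjusted test. The median log2 change was 0.53. Zbtb16 had at most 2 counts in a library and was not tested.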

How the data were processed

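RNA libraries were made with a directional kit, per the labels' protocols. The submitters' processing notes name HISAT2 2.1.0, SAMtools 1.9, StringTie 1.3.4d, bedtools 2.27.1, edgeR and the build mm10; the program that counted reads, the annotation and the strandedness were not stated. The authors deposited whole-number counts per gene, not normalized. Each of the 4 columns matched 1 library's title.

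The analysis used R 4.3.3, edgeR 4.0.16 and DESeq2 1.42.0. Genes passing filterByExpr were tested, after TMM scaling, with the quasi-likelihood F-test, two-sided, group as the only term, with Benjamini-Hochberg adjustment over all 12675 genes and a threshold of 0.05. The common coefficient of variation was 0.230. An exact permutation test of 2 against 2 libraries cannot go below p = 0.333. Libraries of a group differed beyond counting noise (chi-square per degree of freedom 37.0 and 120), so none were merged. On simulated counts (5 draws of 12675 genes, 200 changed) the test recovered 25.0% of 2-fold and 81.6% of 4-fold changes, and 10.1% of its calls were false. Those counts were drawn independently for each gene and library, without library differences shared across genes. The shares may therefore not hold for the data.

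The genes and lists were chosen with earlier results of these data known. The text names all 10 genes, and of each other list up to 4 genes with the smallest p and every gene not tested. Fkbp5, Tsc22d3, Nr3c1 and Slc39a1 are named besides, after their values were seen, and so are overlapping genes. Gaps between libraries used log2 of CPM plus 0.01. Transcript lengths came from GENCODE M21 (GRCm38, the assembly of mm10).

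Alternatives were median-of-ratios scaling, 2 other filters, DESeq2, a threshold of 0.1, replicate number as block, omission of each library and other transcript lengths.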

Additional observations from a re-analysis of the deposited data

How the results depend on the processing

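The count of genes with an adjusted p below 0.05, 0 with all libraries, was 0 with median-of-ratios scaling, with a filter of 1 CPM in 2 libraries and at a threshold of 0.1, 4 with no filter, 271 with DESeq2 and between 1 and 389 with 1 library left out. For the 10 genes, scaling, filters and DESeq2 changed no direction and no call. With 1 library left out the log2 changes ran from -0.15 to 0.13 for Slc30a5, -0.16 to 0.29 for Slc30a7, -0.13 to 0.21 for Slc39a6 and -1.41 to 0.034 for Slc39a10, so their directions turned. List medians then ran from 0.43 to 1.28 for Mt1 and Mt2, 0.071 to 0.30 for the 4 exporters, -0.97 to 0.034 for the 3 importers, 0.054 to 0.19 for all Slc30a, -0.16 to 0.13 for all Slc39a, -0.016 to 0.26 for copper handling, 0.35 to 0.73 for glucocorticoid-responsive and 0.35 to 0.61 for MTF1-responsive genes. The glucocorticoid-responsive median was 0.37 with no filter, where Zbtb16 entered. The log2 ratio of summed Mt1 and Mt2 ran from 0.40 to 1.27.

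The replicate numbers are not said to pair libraries, and same-numbered libraries deviated together with a correlation of 0.376 across genes. With the replicate number as a block 1160 genes passed, and the block log2 changes were 0.82 for Mt1 (adjusted p = 0.00450), 0.97 for Mt2 (adjusted p = 0.000589) and -0.65 for Slc39a10 (adjusted p = 0.0479), where 9.15% of genes passed. None of the other 7 passed.

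With the mean transcript length, levels in CPM per kilobase were 711 for Mt1, 7.74 for Mtf1, 6.98 for Slc30a1, 10.5 for Slc30a4, 55.7 for Slc30a5, 16.5 for Slc30a7, 104 for Slc39a6, 24.4 for Slc39a10 and 47.2 for Slc39a14. With the longest coding transcript, added after the data had been seen, Slc30a5 was at 43.9. The causes of these shifts beyond the lengths themselves were not tested. In fits that leave out a library, a group of 1 library was taken to vary like the other group. The median log2 gap between libraries was 0.20 with plain oil and 0.37 with ozonated oil. Only the log2 changes of these fits are therefore given. With 2 libraries a group, the test found 25.0% of 2-fold changes on counts simulated without library differences shared across genes.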
